A study of Arabidopsis thaliana with 2 samples.

Results

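The genes described here are those in which cotyledons of the Arabidopsis thaliana lefko mutant and of wild type used alternative 5' or 3' splice sites in different proportions, and for which no retained intron was listed. Of 93 listed splice site events in 84 genes, 27 lay in genes that also had a listed retention event and were set aside. A further 5 events were left out because the junction of the shorter form spanned 5000 nt or more, with spans of 19234 to 87531 nt, while the longest junction kept spanned 1860 nt and the next 1355 nt. Another 6 events in 6 genes (REF6, RS31, ATO, AT3G12640, AT2G43760 and SWEETIE) were left out by the rule for membership. This left 55 events in 52 genes, out of 343 listed events in 281 genes. There were 22 events at alternative 5' sites and 33 at alternative 3' sites.

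The series compares nuclear pre-mRNA maturation in the mutant and in wild-type Col-0, and both genotypes are in the Col-0 background. The labels give 1 sample per genotype, name neither the affected gene nor the allele, and give no plant age. The protocol calls the mutant lefko1 and names cotyledons, whereas the sample title reads lefko2 and the source reads seeds. The tables list only events past the authors' threshold and no gene levels, so the labelled tissue was not checked against marker genes. Each event has 3 counts per genotype for the longer form (inclusion reads) and 3 for the shorter form (skipping reads), called count sets below. Whether these are separate plants, libraries or runs is not stated, so SDs and p-values cover the spread among sets and nothing wider. Read totals per set ran from 10227 to 11674 over the 55 events in wild type and from 16363 to 17254 in lefko. Over all listed events they were 168946 to 187225 and 166819 to 178604 reads.

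An intron is removed between a 5' site, which begins with GT and is first bound by the U1 snRNP, and a 3' site, which ends with AG and is bound by the U2AF dimer. Where a second usable site lies near the first, the same intron can be cut in either of 2 ways, and the transcript then has a longer or a shorter exon. A difference in length that is not a multiple of 3 shifts the reading frame, and a stop codon that comes well before the last exon junction can mark an mRNA for nonsense-mediated decay. For each event the share of the longer form was taken as inclusion reads over inclusion plus skipping reads, averaged over the 3 sets, and a change is lefko minus wild type in percentage points. The test was limma on the log2 odds of inclusion against skipping reads, fitted across all 343 events. These events were listed by the authors' test on the same reads, so the limma p-values are not independent support for a change.

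The shortest stretches show how close the competing sites can lie. In 7 events the sites were 3 or 4 nt apart, and their sequences are printed 5′ to 3′ from the reference genome (TAIR10.1) on the strand of the gene. Capitals mark the stretch that only the longer form keeps. In the first 6, the intron lies to the left and the exon to the right, and in GAF1 the exon lies to the left.
HIRA, chr3:16117021-16117050, plus strand: tctgattatccttaaagTAGgtggatctta
ABCG43, chr4:8701264-8701293, plus strand: acaataattttcaacagTAGagcattcctg
AT5G14690, chr5:4734518-4734547, minus strand: attattttttgttgtagTAGgcttttgttt
AT5G49110, chr5:19903201-19903230, plus strand: caaatttcgtatggcagCAGcaggttggaa
GCP1, chr2:18667184-18667213, plus strand: gaattggcaacattaagGCAGaattgcttg
UVH3, chr3:10426214-10426243, plus strand: tttgtctacctttctagCCAGtaatggatg
GAF1, chr5:24148226-24148255, plus strand: tcaaaaaattGTAGgtatgtatcaaattcg
The next set is shown because each event has a deep count and a stretch of 7 to 11 nt that shifts the frame. All are 3' sites, with the intron to the left.
AT4G27700, chr4:13827386-13827415, minus strand: ttgtgtctcttggagGGTTTAGctgaagtc
AT3G05350, chr3:1529798-1529827, minus strand: ttggaattcatgaagGGAGCAGttcctttt
AT1G15240, chr1:5248452-5248481, plus strand: ttattcttgtttcagTCATCAGtgtgtttg
PPD6, chr3:20985294-20985323, plus strand: ctttgaaatctagTCTGGTTGCAGgaaatg

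All 22 pairs of 5' sites began with GT in both forms, and all 33 pairs of 3' sites ended with AG in both forms. Among annotated introns of the genome, 98.7% begin with GT and 99.8% end with AG. Each site was scored by log2 odds against all annotated introns and expressed as a percentile among them. The median percentile was 39.9 for the site of the shorter form and 25 for the site of the longer form. The site whose form had the larger share in lefko scored higher than its competitor in 28 of 55 events. That count was 12 of the 31 events in which this was the longer form and 16 of the 24 in which it was the shorter form.

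The longer form had a larger share in lefko in 31 of the 55 events and the shorter form in 24. This is 56.4% with a higher share of the longer form, against 77.8% of all 343 listed events and 88.9% of the 27 splice site events in genes with listed retention. The 343 include 214 retention events and events of other classes. For those the share is that of inclusion reads, which need not come from a longer exon. At 5' sites the longer form was higher in 11 and lower in 11 events, and at 3' sites it was higher in 20 and lower in 13. The median change over the 55 events was 9.42 points, against 17.7 points over all listed events. By limma, 42 of the 55 events passed an adjusted p of 0.05, of which 29 were higher and 13 lower, where 88% of all listed events passed (72% higher and 16% lower). The ranges of the 3 sets did not overlap between genotypes in 46 of the 55 events, against 91.8% of all listed events.

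The direction went with the depth of counting. In the 29 events that had 20 or more reads in all 6 sets, called deeply counted below, the longer form was higher in 23 and lower in 6, which is 79.3% against 86.5% of the 245 listed events with that depth. In the other 26 events it was higher in 8 and lower in 18, which is 30.8% against 56.1% of the 98 listed events below that depth. Both groups lay below the listed events of the same depth, and the gap was wider where reads were few. A share in those events is coarse, as some sets hold a single read.

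The direction also went with the level in wild type, given here as raw shares, whose level may depend on how reads over the stretch were counted. Where the longer form held over 80% of reads in wild type, it was lower in lefko in 20 of 25 events, and where it held 80% or less it was higher in 26 of 30. The wild-type share enters both this split and the change, so the pattern is partly fixed in advance. It was not counted over all listed events. A share near 100% has little room to rise, and the median wild-type share was 95.1% in the events that were lower and 43.8% in those that were higher. In 18 of the 24 lower events the shorter form had at most 4 reads over the 3 wild-type sets together. In 22 of those 24 the skipping reads were more numerous in lefko, whereas the inclusion reads were fewer in only 11. In the 31 higher events, inclusion reads were more numerous in 28 and skipping reads fewer in 24.

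**Figure D1:**
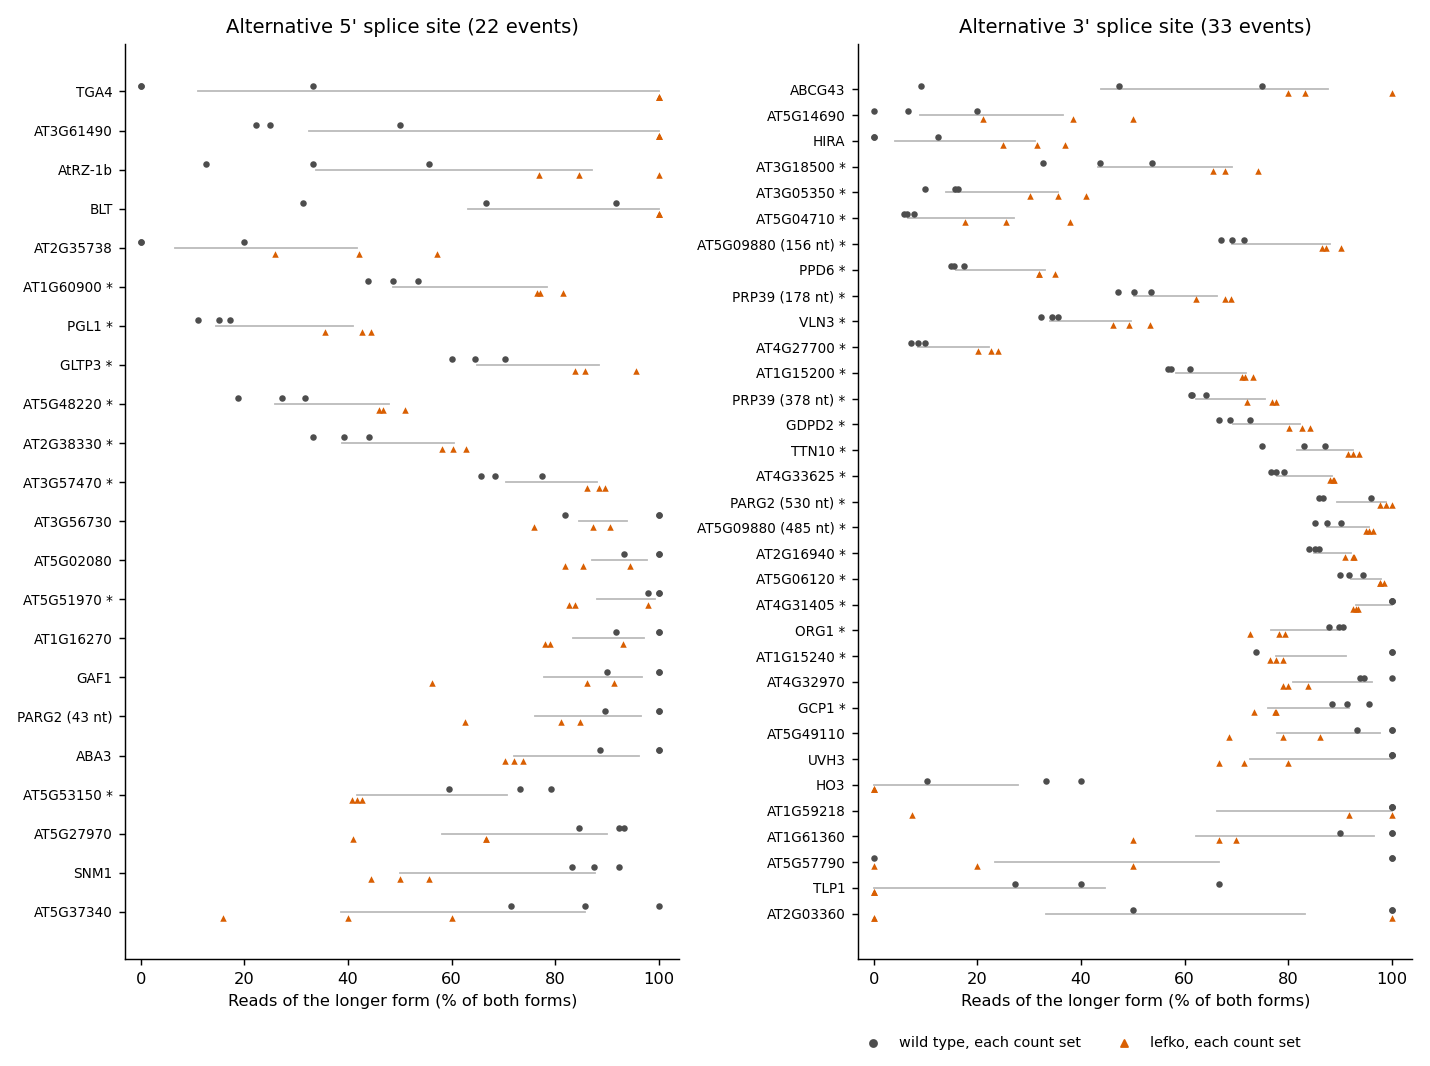
Share of reads of the longer form (percent, horizontal axis) in each of the 55 events, with 5' site events on the left and 3' site events on the right. Circles are the 3 wild-type sets, triangles the 3 lefko sets, grey lines join the means, and an asterisk marks deeply counted events (20 or more reads in every set). Each panel is ordered by change, with the largest falls at the bottom. Events that were lower in lefko had a median wild-type share of 95.1%, with a range of 27.9 to 100%.

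The annotation of the 2 junctions divided the events as well. Where only the junction of the shorter form is annotated, the longer form was higher in 14 of 14 events. Where only the junction of the longer form is annotated, it was lower in 10 of 12. Both junctions are annotated in 27 events, of which 15 were higher and 12 lower, and neither in SNM1 and AT4G31405, which were both lower. Thus in 24 of the 26 events with 1 annotated junction, the unannotated form had the larger share in lefko. This split was not counted over all listed events, so it cannot be called particular to these genes. The exceptions were AT4G33625 and the 530 nt event listed under PARG2.

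The length of the stretch differed between directions, with a median of 125 nt in the higher events and 22 nt in the lower ones. Of 19 events with a stretch of at most 17 nt, 7 were higher and 12 lower. Of 13 events between 18 and 99 nt, 6 were higher and 7 lower. Of 23 events of 100 nt or longer, 18 were higher and 5 lower, and 18 of these 23 were counted deeply, against 6 of the 19 shortest.

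Divisibility by 3 did not separate the directions. The 19 events whose stretch is a multiple of 3 had 10 higher and 9 lower, and the other 36 had 21 higher and 15 lower. In the deeply counted events the counts were 5 higher and 2 lower against 18 higher and 4 lower. Median changes were 5.88 and 10.02 points.

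**Figure D2:**
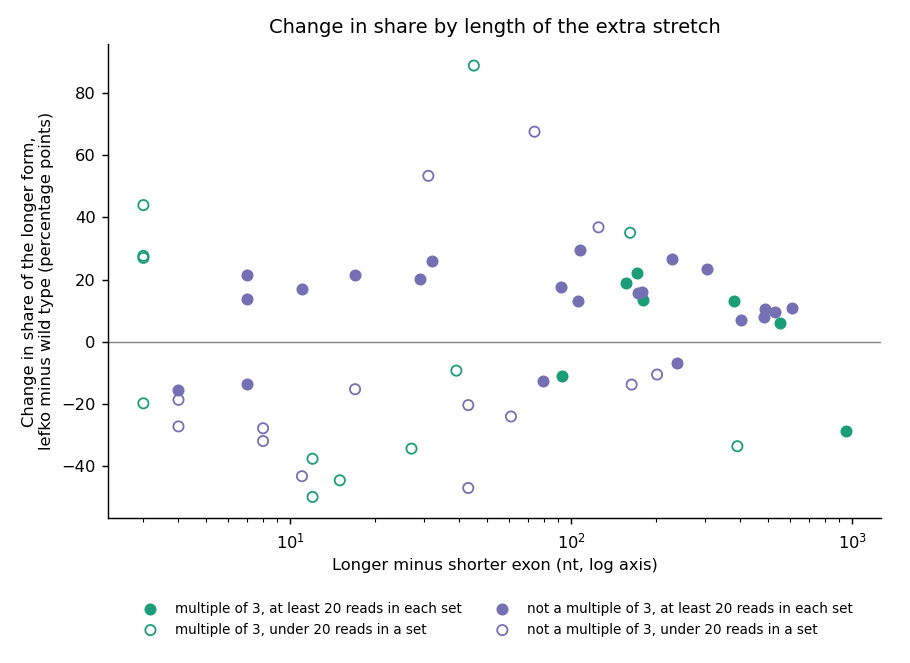
Change in the share of the longer form (percentage points, vertical axis) against the length of the extra stretch (nt, logarithmic horizontal axis) for 55 events, coloured by whether the length is a multiple of 3 and filled where every set has 20 or more reads. Filled points of 100 nt or more lie above 0 except those at 238 and 951 nt, and both colours occur on both sides of 0.

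What the stretch does to the protein was read from the annotated transcripts. Of the 55 events, 41 lie in coding sequence, with 25 higher and 16 lower, and 8 in the 5' UTR, with 4 higher and 4 lower. One lies in the 3' UTR (AT1G59218), 2 span a start or stop codon (AT5G06120 and ORG1), 1 lies in a transcript with no coding sequence (AT2G35738), and for 2 no annotated transcript holds either junction. The reading frame of both forms was rebuilt from the annotated start codon of 1 transcript, with its other introns removed as annotated. A form can have a longer frame in an annotated transcript of its own. In AT4G33625, AT5G02080, PRP39 (378 nt) and the 530 nt event listed under PARG2, the rebuilt forms do not differ by the listed stretch. Their stop codons may then not be those of the forms that were counted. In 37 of the 41 coding events the 2 forms reach different stop codons, and in 4 they reach the same one.

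In 31 of these 37 events the form that ends earlier had the larger share in lefko, against 90% of the 60 such events among all listed splice site events, which include these 37. Where both junctions are annotated, 9 moved toward the earlier stop and 4 away from it. The counts were 13 and 0 where only the shorter form's junction is annotated, and 9 and 2 where only the longer form's is. With 1 annotated junction, the frame was rebuilt in a transcript of the annotated form, and the unannotated form ended earlier in every such coding event. There the split by stop codon is the same count as the split by annotation. Only the events with both junctions annotated, 9 against 4, are separate from it. The longer form ends earlier in 23 events, of which 21 were higher, and the shorter form ends earlier in 14, of which 10 were lower. Of the 30 that passed limma, 26 moved toward the earlier stop and 4 away from it. In the 22 counted deeply, 19 moved toward it and 3 away, and those 3 are among the events whose rebuilt forms do not differ by the listed stretch. AT5G02080, another such event, is counted as moving toward it. In genes with listed retention, 18 of 18 moved toward the earlier stop. In the rebuilt forms, the earlier stop lay more than 50 nt before the last exon junction in 35 of the 37 events, AT5G57790 and AT1G15240 being the exceptions. These 35 include the events whose rebuilt forms do not differ by the listed stretch. They also include forms with a longer frame in an annotated transcript of their own.

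The 6 events that moved the other way were HO3 and AT5G57790, which were lower, and AT4G33625, AT3G61490, PRP39 (378 nt) and the 530 nt event listed under PARG2, which were higher. HO3, AT5G57790 and AT3G61490 have few reads. In the others the rebuilt forms do not differ by the listed stretch, so their place in this count is uncertain. Of the coding events with a stretch that is a multiple of 3, 6 were higher, and in 5 of them the stretch brings in a stop codon: HIRA, ABCG43, AT5G48220, AT1G15200 and AT5G09880 (156 nt). The 4 coding events in which both forms share the stop codon, AT2G03360, TLP1, AT5G49110 and AT3G56730, were all lower, and of these AT5G49110 alone passed limma.

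**Figure D3:**
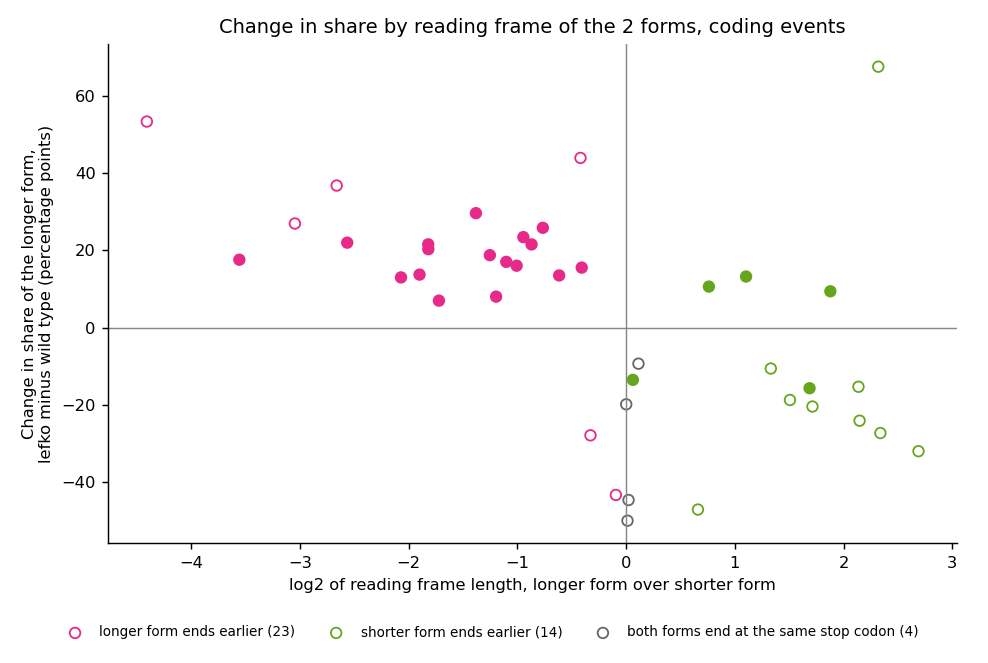
Change in the share of the longer form (percentage points, vertical axis) against the log2 ratio of reading frame length, longer over shorter form (horizontal axis), for 41 coding events. Points are filled where every set has 20 or more reads. The upper left and lower right fields hold the 31 events that moved toward the earlier stop. The lower right field also holds the 4 events whose forms share a stop codon.

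Among the members are genes whose products act in splicing. From a list of 40 splicing-related genes (U1 and U2AF components, SR proteins, PTB proteins, cap binding and decay factors), 9 have any listed event, and their 22 events were all higher and all past limma, with a median change of 17.1 points. Over all listed events 77.8% were higher, 88% passed limma and the median change was 17.7 points. Only AT1G60900 of that list is a member, since 7 of the others have a listed retention event and RS31 was left out by name. AT1G60900 encodes a large subunit of U2AF, the factor that binds the pyrimidine tract and marks the 3' site. Its stretch of 107 nt, chr1:22425297-22425403 on the plus strand, lies in coding sequence between these 5' sites, with the GT in capitals.
AT1G60900 shorter form: agcagGTatttgctt
AT1G60900 longer form: ctttgGTaagctgca
Inclusion reads were 68, 53 and 59 in wild type and 172, 161 and 127 in lefko. Skipping reads were 59, 68 and 62 in wild type and 39, 48 and 39 in lefko. The share of the longer form was 48.7% ± 4.87 (SD, n = 3 count sets) in wild type and 78.4% ± 2.75 in lefko, a rise of 29.7 points (SE 3.23) and of 1.93 log2 odds (SE 0.22, limma adjusted p = 0.00202). The ranges of the sets did not overlap, and this was the largest rise in points, though not in log2 odds, among the deeply counted events. In the authors' deposited table its FDR is 1.64e-09, the smallest above 0 among the members. Only the shorter form is annotated, with a reading frame of 589 codons, and the longer form reaches a stop within the stretch after 226 codons.

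AT5G09880 and AT2G16940 are both annotated as CC1-like splicing factors, RNA-binding proteins with several RNA recognition motifs. AT5G09880 has 2 events that share the shorter form, with stretches of 156 nt (chr5:3083330-3083485) and 485 nt (chr5:3083330-3083814), both on the minus strand. The 3 competing 3' sites are shown with the AG in capitals.
AT5G09880 shorter form: tttttgtactttcAGgtata
AT5G09880 156 nt form: tttctattactctAGgcctc
AT5G09880 485 nt form: attctgtattcttAGatgca
In the 156 nt event, inclusion reads were 390, 309 and 338 in wild type and 986, 948 and 987 in lefko. The skipping reads were 191, 123 and 151 in wild type and 153, 137 and 108 in lefko. The share rose from 69.3% ± 2.2 to 88% ± 1.87, by 18.8 points (SE 1.67, limma adjusted p = 0.00202). In the 485 nt event the share rose from 87.6% ± 2.54 to 95.6% ± 0.666, by 8.03 points (SE 1.52, limma adjusted p = 0.00272). In both, inclusion reads in lefko were above those of wild type in every set, by 2.82 and 2.64 times over summed reads, while skipping reads were 0.856 times. In wild type the inclusion reads summed to 1037 for the stretch of 156 nt and to 3273 for that of 485 nt, so in this gene the raw shares of the 2 events are not on the same footing. Both longer forms stop early, after 221 and 230 codons, where the shorter form has 527. The strongest site of the 3 is that of the shorter form, at percentile 96.7, against 49.7 and 21.5.

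AT2G16940 had inclusion reads of 439, 440 and 513 in wild type and 1271, 1383 and 1232 in lefko over a stretch of 401 nt. Skipping reads were 83, 77 and 84 in wild type and 103, 110 and 122 in lefko. The share rose from 85% ± 0.917 to 92% ± 0.913 (limma adjusted p = 0.00301). In the transcript of the shorter form, the longer form ends after 170 codons where the shorter has 561. An annotated transcript of the longer form has a reading frame of 1263 nt, against 1686 nt for the shorter. In this gene both forms had more reads in lefko.

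PRP39 encodes a tetratricopeptide repeat protein of the U1 snRNP, the particle that recognises 5' sites. Its 2 events share the shorter form and differ by 178 and 378 nt.
PRP39 shorter form: tgtcttttccaatAGgtggt
PRP39 178 nt form: atgttattaatgcAGgtgtc
PRP39 378 nt form: attattgacctacAGttaag
In the 178 nt event the share was 47.1, 53.5 and 50.3% in wild type and 68.9, 67.9 and 62.2% in lefko, a rise of 16 points (SE 2.79, limma adjusted p = 0.00636). In the 378 nt event it was 61.2, 64.2 and 61.4% in wild type and 77.6, 76.9 and 72% in lefko, a rise of 13.2 points (SE 2.02, limma adjusted p = 0.0061). The 178 nt form ends after 382 codons where the shorter form has 768 in the same transcript. For the 378 nt event, the transcript used gave 823 codons with the longer junction and 383 with the shorter. These rebuilt forms do not differ by 378 nt, and the shorter form has 768 codons in an annotated transcript of its own. The early stop after 383 codons may therefore not be that of the form counted. The stretch of the 178 nt form is part of the 378 nt stretch, so the 2 events are not independent.

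AT1G15200, annotated as a protein-protein interaction regulator, has a stretch of 180 nt that brings in a stop. Its share was 57.4, 61.1 and 56.7% in wild type and 71.6, 71.1 and 73.1% in lefko, a rise of 13.5 points (SE 1.51, limma adjusted p = 0.00406). AtRZ-1b, a glycine-rich RNA-binding protein, rose from 33.8% ± 21.5 to 87.2% ± 11.8 over a stretch of 31 nt (limma adjusted p = 0.0145), on 6 to 13 reads per set. In the transcript of its shorter form, the longer form of AtRZ-1b ends after 12 codons and the shorter has 255. In an annotated transcript of its own, the longer form has a reading frame of 750 nt, against 768 nt for the shorter.

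**Figure D4:**
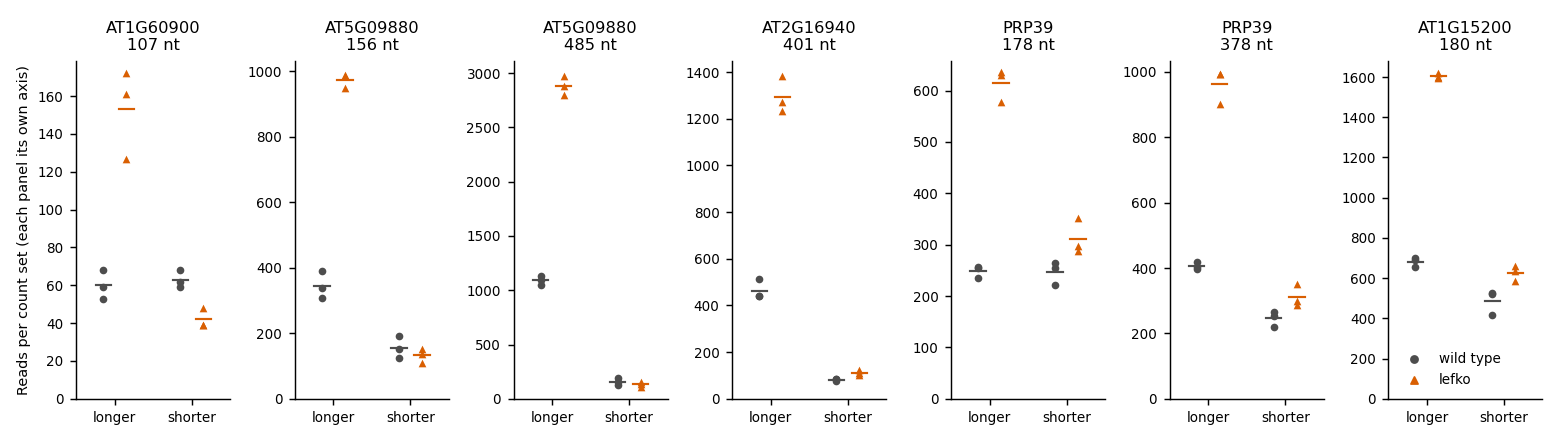
Reads of the longer and the shorter form per count set (vertical axis, reads, own scale in each panel) in 7 events of 5 splicing-related genes, with circles for wild type, triangles for lefko and lines at the mean. Reads of the longer form lie above wild type in every panel, and reads of the shorter form lie below it in AT1G60900, overlap in AT5G09880 and lie above it in AT2G16940, PRP39 and AT1G15200.

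Of the other deeply counted events at 5' sites, 4 in coding sequence rose, and in each the longer form ends earlier. AT5G48220, annotated as an aldolase-type TIM barrel protein, had shares of 18.8, 31.7 and 27.2% in wild type and 46, 46.8 and 50.9% in lefko, a rise of 22 points (SE 4.09, limma adjusted p = 0.00672). Its stretch of 171 nt holds a stop, and in the transcript of the shorter form the longer form ends after 64 of 379 codons. An annotated transcript of the longer form has a reading frame of 951 nt, against 1140 nt for the shorter. GLTP3, a glycolipid transfer protein, had shares of 64.4, 60 and 70.4% in wild type and 85.7, 95.5 and 83.9% in lefko, a rise of 23.4 points (SE 4.69, limma adjusted p = 0.0126). AT2G38330, a transporter of the MATE efflux family, rose from 38.9% ± 5.37 to 60.4% ± 2.28 over a stretch of 17 nt (limma adjusted p = 0.00394). AT3G57470, a peptidase of the insulinase family, rose from 70.5% ± 6.12 to 88.1% ± 1.73 over 92 nt (limma adjusted p = 0.00381). An annotated transcript of its longer form has a reading frame of 2676 nt, against 2901 nt for the shorter. In GLTP3 the frames in such transcripts are 450 and 702 nt. The ranges of the sets did not overlap in any of these 4 genes.

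At 3' sites, 5 deeply counted events with stretches of 7 to 32 nt had the same direction and wild-type shares from 6.69 to 43.4%. AT1G15240 (7 nt) and GCP1 (4 nt), also counted deeply at 3' sites, were lower and are described below. AT4G27700, annotated as a rhodanese-like protein, had shares of 8.55, 7.22 and 9.84% in wild type and 24, 20.1 and 22.6% in lefko (limma adjusted p = 0.00206). Its inclusion reads were near level, at 1.02 times wild type over summed reads, while its skipping reads were 0.331 times. PPD6, a thylakoid lumen protein, had shares of 17.4, 15.4 and 15% in wild type and 35, 32 and 31.9% in lefko (limma adjusted p = 0.00202), and here too the skipping reads were fewer, at 0.539 times.

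AT3G05350, a metallopeptidase, rose from 13.9% ± 3.55 to 35.5% ± 5.39 (limma adjusted p = 0.00387). AT5G04710, annotated as a zinc-dependent exopeptidase, rose from 6.69% ± 0.971 to 27% ± 10.2 over 29 nt (limma adjusted p = 0.0042). AT3G18500, annotated as DNase I-like, rose from 43.4% ± 10.6 to 69.2% ± 4.52 over 32 nt (limma adjusted p = 0.0104). In all 5 genes only the shorter form is annotated and the longer one shifts the frame.

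VLN3, a villin that bundles actin filaments, had shares of 34.5, 35.5 and 32.2% in wild type and 53.3, 49.3 and 46.2% in lefko over a stretch of 173 nt, a rise of 15.6 points (SE 2.27, limma adjusted p = 0.00477). GDPD2, a glycerophosphodiester phosphodiesterase, rose from 69.3% ± 3.05 to 82.3% ± 1.99 (limma adjusted p = 0.00472) while both its forms had fewer reads in lefko, at 0.383 and 0.184 times. Total reads of an event follow the level of the gene as well as its splicing, and in bulk RNA fewer cells of a type and less RNA per cell cannot be told apart. Over the 29 deeply counted events the median ratio of total reads, lefko over wild type, was 1.56.

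At the NAG pairs printed above, insertion of TAG adds an in-frame stop in HIRA, a histone chaperone, and in ABCG43, a membrane transporter. HIRA had 2, 0 and 0 inclusion reads against 14, 11 and 4 skipping reads in wild type, and 7, 3 and 6 against 12, 9 and 13 in lefko. Its share was 4.17% ± 7.22 and 31.1% ± 5.93, a rise of 27 points (SE 5.39, limma adjusted p = 0.0102). In the transcript of the shorter form, the longer form ends after 128 of 1058 codons. In an annotated transcript of its own, the longer form has a reading frame of 2661 nt, against 3177 nt for the shorter. ABCG43 had shares of 9.09, 75 and 47.4% in wild type and 83.3, 80 and 100% in lefko, which did not pass limma (adjusted p = 0.0667). In AT5G14690 the same 3 letters lie in the 5' UTR, and its share rose from 8.89% ± 10.2 to 36.5% ± 14.6 (limma adjusted p = 0.0377, and up to 0.106 without 1 set).

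In AT5G49110, a Fanconi anemia group I-like protein, the NAG pair adds a codon without a stop, and the share fell by 19.9 points (SE 5.56) from 97.8% ± 3.85 to 77.9% ± 8.83 (limma adjusted p = 0.0113). The 3 sites 4 nt apart all had lower shares of the annotated longer form. GCP1, a glycoprotease, had 107, 85 and 108 inclusion reads and 5, 8 and 14 skipping reads in wild type. In lefko it had 72, 80 and 83 inclusion reads and 21, 29 and 24 skipping reads. Its share fell by 15.7 points (SE 2.45) from 91.8% ± 3.52 to 76.1% ± 2.37 (limma adjusted p = 0.00672), and the shorter form ends after 149 of 480 codons. UVH3, an endonuclease of nucleotide excision repair, had no skipping read in wild type beside 7, 1 and 5 inclusion reads, and 5, 4 and 2 beside 10, 10 and 8 in lefko (limma adjusted p = 0.053). GAF1, annotated as polymerase/histidinol phosphatase-like, had 1 skipping read over the wild-type sets and 3, 5 and 14 in lefko (limma adjusted p = 0.1), and the ranges of its shares overlapped.

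In the next 4 lower events in coding sequence the shorter form had few reads in wild type. ABA3, the sulfurase of the molybdenum cofactor needed in abscisic acid synthesis, had 0, 0 and 4 skipping reads in wild type and 11, 16 and 12 in lefko. Its share fell by 24.1 points (SE 3.94) from 96.2% ± 6.6 to 72.1% ± 1.72 (limma adjusted p = 0.0145), and the shorter form ends after 190 of 842 codons. AT5G37340, a ZPR1 zinc-finger protein, had skipping reads of 1, 2 and 0 in wild type and 12, 6 and 16 in lefko, and its share fell from 85.7% ± 14.3 to 38.6% ± 22.1 (limma adjusted p = 0.0294, up to 0.0789 without 1 set, and 0.0844 with the set number as a block). AT5G27970, an ARM repeat protein, fell from 90.1% ± 4.76 to 58.1% ± 14.9 (limma adjusted p = 0.00762), and its shorter form ends after 257 of 1658 codons. AT4G32970, annotated as a BRISC/BRCA1-A complex protein, fell from 96.2% ± 3.29 to 80.9% ± 2.54 (limma adjusted p = 0.0165, and up to 0.0503 without 1 set).

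AT1G15240, a phox domain protein, is deeply counted but rests on 1 set. Its skipping reads were 78, 0 and 0 in wild type and 86, 83 and 72 in lefko, so the first wild-type set has a share of 73.7% beside 100% in the other two. The change of -13.5 points had an SE of 8.79 and did not pass limma (adjusted p = 0.0829, and 0.000278 without the first wild-type set). AT5G02080, a phosphopantothenate-cysteine ligase-like protein, fell from 97.8% ± 3.85 to 87.2% ± 6.52 with overlapping sets (limma adjusted p = 0.0483, up to 0.129 without 1 set, and 0.0601 with the set number as a block), and it shares its skipping reads with a listed exon skipping event.

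SNM1, a DNA repair protein of the metallo-beta-lactamase family, has 5' sites 12 nt apart, and neither of its junctions is annotated.
SNM1, chr3:9803513-9803542, plus strand: gctgagGTTCAACTCTAGgttgatggatga
Its inclusion reads were 12, 14 and 5 in wild type and 4, 6 and 5 in lefko, and its skipping reads were 1, 2 and 1 and then 5, 6 and 4. The share fell by 37.7 points (SE 4.12) from 87.7% ± 4.49 to 50% ± 5.56 (limma adjusted p = 0.00238).

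The untranslated regions held events of both directions. PGL1, an enzyme of the pentose phosphate pathway, had shares of 11, 15.1 and 17.2% in wild type and 42.7, 44.4 and 35.6% in lefko over a 229 nt stretch of its 5' UTR, a rise of 26.5 points (SE 3.25, limma adjusted p = 0.00215). Its inclusion reads were 1.41 times wild type and its skipping reads 0.348 times. AT5G53150, a DnaJ domain protein, fell by 28.9 points (SE 5.88) from 70.7% ± 10.1 to 41.8% ± 0.959 over 951 nt, the longest stretch (limma adjusted p = 0.00666), with skipping reads of 31, 32 and 23 in wild type and 79, 113 and 102 in lefko. TTN10, a GINS complex protein of DNA replication, rose from 81.7% ± 6.12 to 92.6% ± 1.02 over 611 nt (limma adjusted p = 0.00959). Its stretch overlaps AT1G19070, annotated on the same strand, so inclusion reads may belong to that gene. AT5G51970, an alcohol dehydrogenase-like protein, had shares of 97.9, 100 and 100% in wild type and 97.9, 83.7 and 82.7% in lefko, which overlapped (limma adjusted p = 0.053).

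TGA4, a bZIP transcription factor, had the largest change of all members, from 11.1% ± 19.2 to 100% (limma adjusted p = 0.00215), but on 1, 3 and 1 reads in wild type and 2, 1 and 4 in lefko. AT1G61360, a lectin protein kinase, fell from 96.7% ± 5.77 to 62.2% ± 10.7 (limma adjusted p = 0.00477), and AT1G16270, also a kinase, had 97.2% ± 4.81 and 83.4% ± 8.42 (limma adjusted p = 0.0695). AT2G35738, which has no coding sequence, rose from 6.67% ± 11.5 to 41.7% ± 15.6 (limma adjusted p = 0.0204, and up to 0.0632 without 1 set).

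Of the 2 events that span a start or stop codon, AT5G06120, an ARM repeat protein, rose from 92.1% ± 2.27 to 98% ± 0.372 (limma adjusted p = 0.00238), with skipping reads that 2 listed exon skipping events share. ORG1 fell by 12.7 points (SE 2.25) from 89.5% ± 1.44 to 76.8% ± 3.61 (limma adjusted p = 0.00306), and its inclusion reads were 0.472 times wild type.

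Several members were uncertain in place or count. The 2 events listed under PARG2 lie in the neighbouring gene TEJ (AT2G31870), which also encodes a poly(ADP-ribose) glycohydrolase. Its 43 nt event at a 5' site fell from 96.6% ± 5.97 to 76.1% ± 11.9 (limma adjusted p = 0.0267, and up to 0.073 without 1 set), and its 530 nt event at a 3' site rose from 89.5% ± 5.56 to 98.9% ± 1.09 (limma adjusted p = 0.0133). In AT3G61490, AT4G31405 and AT1G59218, the 60 nt around a site occur more than once in the genome, in 2, 4 and 2 copies, so reads may belong to another copy. AT4G31405 had no skipping read in wild type beside 130, 116 and 139 inclusion reads, and 52, 41 and 35 beside 641, 551 and 506 in lefko, and its share fell by 6.97 points (SE 0.299, limma adjusted p = 0.000171).

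AT3G61490, a pectin lyase-like protein, rose from 32.4% ± 15.3 to 100% (limma adjusted p = 0.00494) on 1, 2 and 5 reads in lefko, and in the authors' deposited table its FDR is 0. AT1G59218, a disease resistance protein of the CC-NBS-LRR class, had shares of 100% in each wild-type set and of 100, 7.32 and 91.7% in lefko (limma adjusted p = 0.194). TLP1, a thaumatin-like protein, and HO3, a heme oxygenase, were at 0% in lefko with 0 of 4 and 0 of 11 reads, which allows shares of up to 75% and 27.3%, against 44.6% ± 20.1 and 27.9% ± 15.6 in wild type (limma adjusted p = 0.0525 and 0.172). In BLT, a regulator of trichome branching, all 3 lefko sets rest on 1 read each (limma adjusted p = 0.528). AT2G03360, AT5G57790 and AT3G56730 also missed the threshold of limma, with adjusted p of 0.0914, 0.127 and 0.156, and their sets overlapped.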

How the data were processed

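Per the submitters' processing notes, HISAT2 2.0.4 aligned the reads and the build was TAIR10. In the sources used here, the event caller is not given. The 5 deposited tables of events hold, per the file headers, counts of inclusion reads and of skipping reads (3 to a cell), a p-value and an FDR. All 343 listed events have an FDR under 0.05. Exon starts are counted from 0 (190 of 262 splice site exon entries match an annotated exon that way and 0 when counted from 1), so 1 was added. The members and the gene lists were chosen with earlier results of these data known.

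Shares were computed per count set. Limma 3.58.1 (R 4.3.3) was run on log2((inclusion + 0.5)/(skipping + 0.5)) over all 343 events with Benjamini-Hochberg adjustment, and was tested on simulated data. Junctions, coding regions and site scores (3 exon and 6 intron bases at 5' sites, 15 intron bases and 1 exon base at 3' sites, from 133326 introns) came from RefSeq TAIR10.1, whose sequence versions equal those in the tables. Of 50 rebuilt reading frames, 50 equal the annotated coding length for the annotated form. Limits on counts of 0 take 3 reads and cover counting error only. Python 3.11.15, NumPy 2.4.6, pandas 2.3.3, SciPy 1.17.1 and matplotlib 3.10.9 were used.

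A rule named 38 events in 35 genes: in each class the 8 largest rises and 8 largest falls among events that had 20 or more reads in every set, sites at most 6 nt apart, members of the splicing list, members with over 1 event and members of categories of 5 or fewer. The other members named were chosen after their values were seen. Alternatives were depth, FDR and size limits, read weighting, left-out sets, another constant, Fisher's exact test and the set number as a block. Numbers of the sets are not stated to pair them.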

Additional observations from a re-analysis of the deposited data

How the results depend on the processing

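The share of events with a higher longer form was 79.3% where every set had 20 or more reads, against 56.4% of all 55, and 81.8% against 58.3% where the stretch is not a multiple of 3. Under the other alternatives both shares stayed within the exact 95% binomial interval of the main value, as did the share for multiples of 3 (52.6%) and the share of coding events that moved toward the earlier stop (83.8%, range 80.8 to 88.2%). Leaving out each count set in turn gave 56.4, 52.6, 58.3 and 83.8% each time. The count past limma was 42 and ranged from 38 to 42 without 1 set. It was 40 with the set number as a replicate block, which ended the calls of AT5G02080 and AT5G37340 (adjusted p = 0.0601 and 0.0844) and changed no other, 40 with a constant of 1, 28 of 29 in the deeply counted events, and 51 by Fisher's exact test on summed reads, which ignores the spread between sets. Without 1 set, 6 events lost their limma call in at least 1 case (AT2G35738, AT4G32970, AT5G02080, AT5G14690, AT5G37340 and the 43 nt event under PARG2) and 10 gained one, among them UVH3 (adjusted p = 0.00593 at the lowest) and AT1G15240. BLT ranged from -0.31 to 1.69 log2 odds without 1 set, against 0.68 with all, and reversed without the third wild-type set (limma adjusted p = 0.664), and no other event did. Dividing inclusion reads by 2 rescales both genotypes alike and cannot test the direction. The alternatives by own transcript, copied sites and shared junctions, and those for the earlier stop, were chosen after seeing the data. The planned count model was not run, because the cells hold joined counts. In 26 of the 55 events at least 1 set has under 20 reads, which limits the precision of their changes.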
